A study of Mus musculus with 20 samples.

Results

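The genes described here are 42 genes of the interferon response and of antigen presentation on MHC class I, taken by symbol from a liver gene count table of 55421 genes. All 42 were found, and all 42 passed the count filter that left 22867 genes for testing. Polyadenylated RNA was sequenced from 20 mouse livers in 4 groups of 5. Wildtype mice, labelled female, had received at 6 months of age an AAV8 vector that carries Staphylococcus aureus Cas9 under the Tbg promoter and a guide RNA under the U6 promoter. The guide was directed at Hira in the HIRA KO groups and at the Rosa26 locus in the control groups, and livers were taken 3 weeks or 6 months after injection. Tbg is active in hepatocytes, so that the other cells of the liver, and any hepatocyte the vector missed, keep an unedited Hira gene. All groups, controls included, therefore carried the virus and the nuclease, and no uninjected liver was among the 20. The comparisons ask whether the guide against Hira changed the level of these genes at either time, and whether the change differed between the times.

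HIRA is a histone chaperone that deposits a variant of histone H3 at active genes. Interferons bind receptors at the cell surface, and type I and type III interferons act through a complex that holds STAT2 and IRF9 and binds a short DNA element, the ISRE, in front of interferon-stimulated genes. Type II interferon acts mainly through another element, GAS. The induced proteins sense viral nucleic acid, block viral replication, disrupt vacuoles that hold pathogens, and load peptides on MHC class I. In liver, hepatocytes, Kupffer cells and infiltrating leukocytes all can transcribe such genes. In bulk tissue, fewer cells of a type and less RNA per cell cannot be told apart.

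The DNA next to the start of these genes is shown because many of the members hold the same element there. Of the 42 members, 33 had a promoter in the RefSeq table for GRCm38.p6 (250 bases before to 50 bases after the start), and Dhx58, Zbp1, Oas2, Mx1, Mx2, Usp18, Rtp4, Gbp6 and Iigp1 did not. The ISRE was searched as GAAANNGAAA on both strands, and 18 of the 33 members (54.5%) held it in at least 1 window, against 3.99% of 27025 genes with windows of the same length (3.44% of the 32851 windows). The GAS element, searched as TTCNNNGAA, which reads the same on both strands, was in 9 of the 33 (27.3%) against 9.55% of all genes (8.30% of windows). Oas1a, Bst2, Gbp7, Igtp and Irgm2 held both. By role, the ISRE was in 6 of 7 interferon-inducible GTPases, 3 of 4 IFIT genes and 2 of 2 nucleic acid sensors with a promoter. It was in 3 of 6 other antiviral effectors, 2 of 4 OAS genes, 1 of 4 transcription factors and 1 of 6 genes of antigen presentation. Whether the roles differ in this was not tested. The windows below run 5′ to 3′ on the strand that carries the match, with the match in capitals.
Stat2 (chr10:128270266-128270295, minus strand): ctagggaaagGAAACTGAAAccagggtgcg
Ifit1 (chr19:34640794-34640823, minus strand): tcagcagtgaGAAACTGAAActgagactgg
Ifit3 (chr19:34583397-34583426, minus strand): gaggaaagtaGAAACTGAAAcagacttaaa
Ifit3b (chr19:34607793-34607822, minus strand): gaggaaagtaGAAACTGAAAcagacttaaa
Isg15 (chr4:156200871-156200900, minus strand): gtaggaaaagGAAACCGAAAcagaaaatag
Bst2 (chr8:71537577-71537606, minus strand): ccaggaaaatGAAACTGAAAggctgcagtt
Rsad2 (chr12:26456553-26456582, plus strand): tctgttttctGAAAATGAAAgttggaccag
Irgm1 (chr11:48871425-48871454, minus strand): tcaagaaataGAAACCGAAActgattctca
B2m (chr2:122147538-122147567, plus strand): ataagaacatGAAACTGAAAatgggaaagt
A second set shows the GAS element in the transcription factor gene Irf1 and the immunoproteasome gene Psmb8, which held no ISRE in this window.
Irf1 (chr11:53769914-53769942, plus strand): acagcctgatTTCCCCGAAatgatgaggc
Psmb8 (chr17:34198088-34198116, plus strand): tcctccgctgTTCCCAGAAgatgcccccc
The windows of Ifit3 and Ifit3b were identical, and reads of these near-identical genes may have been split between them. A match of letters is a description of the window and no evidence that a factor binds there.

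The libraries held 19916430 to 24079736 gene counts. Levels are given as a gene's counts per 1000000 counts of the library (CPM), scaled with the TMM factors of edgeR. Hira itself was at 6.04 to 8.54 CPM in the 3-week controls and at 4.15 to 5.95 in the 3-week HIRA KO livers, a log2 difference of -0.48 ± 0.14 (SE; adjusted p 0.197 in edgeR). At 6 months it was at 4.82 to 7.32 CPM in controls and 4.96 to 6.51 in HIRA KO (-0.10, adjusted p 0.794 in edgeR). The difference was -0.16 without the library labelled HIRA KO 6 months replicate 5, which was the highest of its group, -0.02 without control replicate 2, -0.17 without control replicate 5 and -0.06 without HIRA KO replicate 2. For this CRISPR model the study reports that HIRA protein was lost, by western blot. The values here are RNA of whole liver, and protein was not measured in these data. All 7 hepatocyte markers were detected, and they summed to 82355 to 162663 CPM in the 20 libraries, as the label liver asks. In the library labelled HIRA KO 6 months replicate 5, Xist was counted 9 times and the Y-linked genes Ddx3y, Eif2s3y, Kdm5d and Uty 2041 times, against 6286 to 8436 and 0 to 13 times in the other 19, which goes against the label female. On the sex of these animals the sources differ, the study's results text naming males and a figure legend, like the labels, females. Several values at 6 months are therefore also given without it.

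Member levels per kilobase of exon ran from B2m, the light chain of MHC class I, at 2296 CPM per kb, to Oas3, at 0.531 CPM per kb. Oas3 makes the second messenger that activates RNase L. The class I heavy chain genes H2-K1 (577 CPM per kb) and H2-D1 (327) came after B2m, followed by Bst2, which tethers budding virions to the membrane, at 179, and by the GTPase Iigp1 at 61.9. Reads of H2-K1 and H2-D1 may be exchanged between these paralogs, as may those among the Oas and Gbp genes. Members also differed in spread. The SD within groups, pooled over the 4 groups, was 0.17 on the log2 CPM scale for H2-D1, H2-K1 and Ifi35 and 0.18 for Bst2, but 0.86 for Oas3, 0.69 for Oas1a and 0.68 for Mx1.

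**Figure D1:**
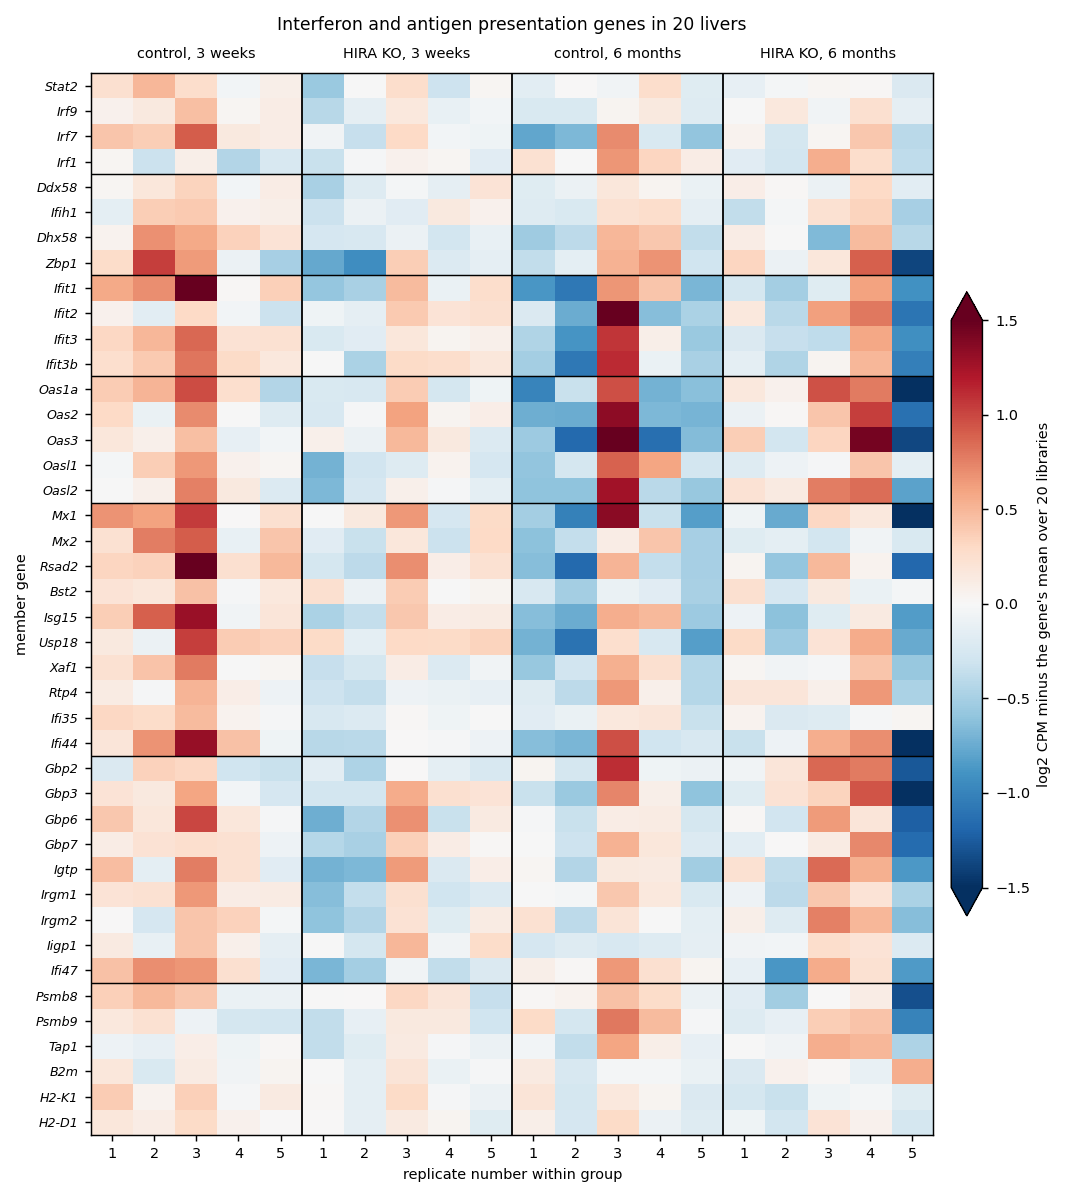
Heat map of 42 member genes (rows, grouped by role between the horizontal lines) in 20 libraries (columns, 5 replicates in each of 4 groups). Colour gives log2 CPM minus the gene's mean over the 20 libraries, cut at 1.5 either way. Control 3 weeks replicate 3 and control 6 months replicate 3 are high in most rows, and the library labelled HIRA KO 6 months replicate 5 is low in most rows but not for B2m.

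The libraries differed from each other over the whole gene set, also within groups, as the heat map by library shows. The mean of the 42 centred log2 CPM values was 0.21, 0.27, 0.63, 0.06 and 0.00 in the 3-week controls (replicates 1 to 5) and -0.30, -0.27, 0.25, -0.05 and 0.00 in the 3-week HIRA KO livers. At 6 months it was -0.29, -0.45, 0.58, 0.02 and -0.35 in controls and -0.03, -0.20, 0.23, 0.42 and -0.74 in HIRA KO. The 3-week controls were all at or above 0, and the other 3 groups each spanned values on both sides of it. Control 3 weeks replicate 3 had the highest value of all 20 libraries for 17 members, and control 6 months replicate 3 for 13. The library labelled HIRA KO 6 months replicate 5 had the lowest value for 23 members and the highest for 1, B2m. The 3-week control group had the highest mean CPM of the 4 groups for 30 of the 42 members.

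At 3 weeks, 39 of the 42 members had a lower fitted level in HIRA KO than in control livers, and none of these differences passed the test across all genes. The share of all 22867 tested genes with a lower fitted level was 50.9%. The median log2 fold change was -0.32 over the members and -0.01 over all genes. No member had an adjusted p under 0.05 (0 of 42 at any fold by edgeR's quasi-likelihood test, background 0.197% of genes) or was called at an adjusted p under 0.05 with a log2 fold change beyond 1 (background 0.114%). DESeq2 also called 0. At an unadjusted p under 0.05 there were 13 members, all lower in HIRA KO, 31.0% of the 42 against 4.50% of all genes and 6.24% of the 12903 genes with a mean of at least 1 CPM. That count was 5 without control replicate 3, 5 without HIRA KO replicate 1, 7 without control replicate 2 and 7 without HIRA KO replicate 2, and it was 5 in limma on FPKM and 19 when only the 3-week groups were fitted. The count of members lower in HIRA KO was 35 to 40 with any 1 library left out.

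**Figure D2:**
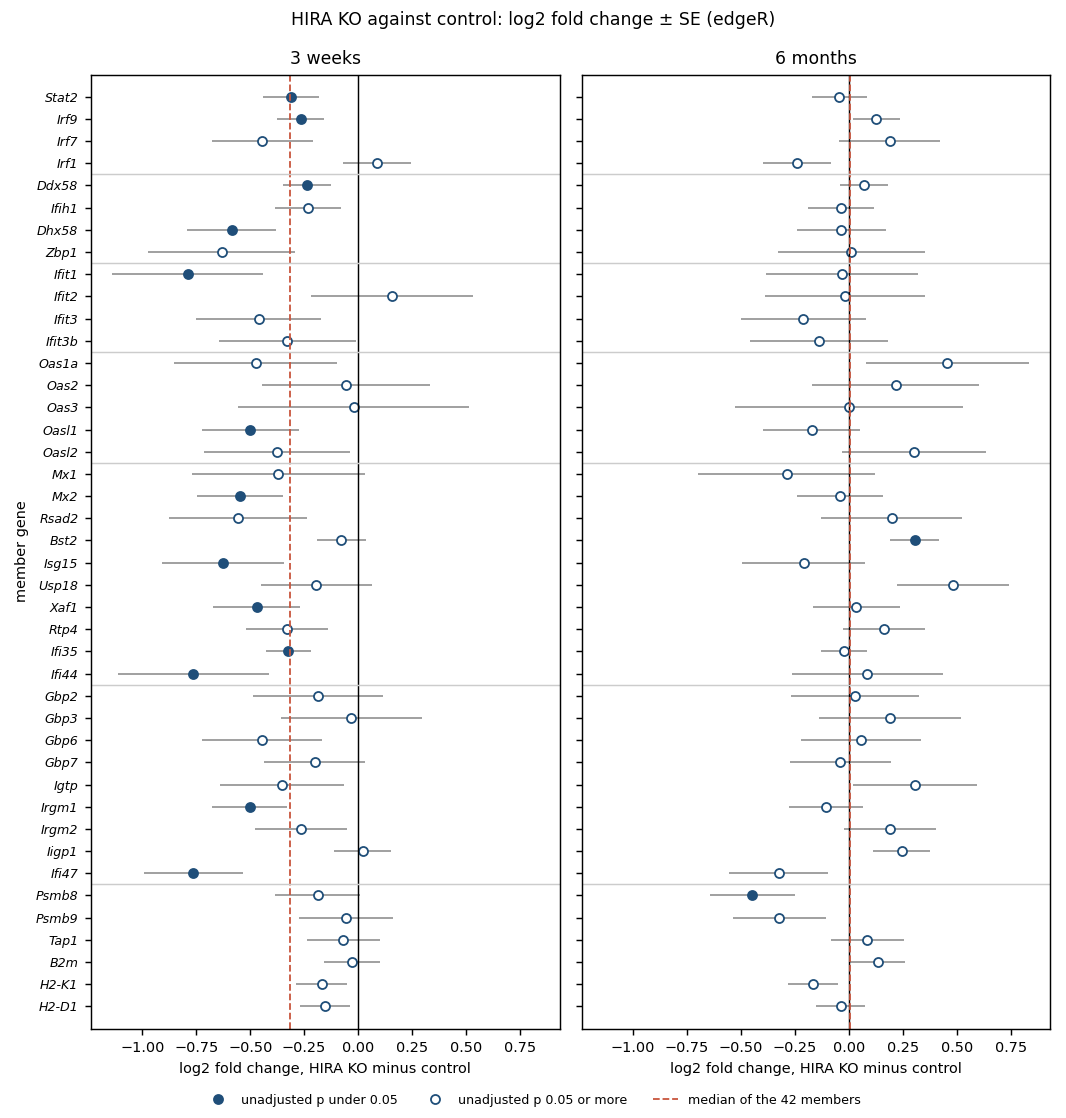
Fitted log2 fold change of each member, HIRA KO minus control, with its standard error (bars) at 3 weeks (left) and 6 months (right), from 5 against 5 livers at each time. Filled points have an unadjusted p under 0.05, and the dashed line is the median of the 42 members, at -0.32 and 0.01. At 3 weeks 39 points lie left of 0, and at 6 months 20 do.

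Among the transcription factors of the response, Irf9 is the DNA-binding part of the complex that binds the ISRE. Irf9 was at 48.8, 51.7, 63.6, 47.4 and 50.5 CPM in the 3-week controls and at 34.9, 42.4, 52.0, 43.2 and 45.4 in HIRA KO. The groups overlapped through HIRA KO replicate 3, and the log2 fold change was -0.27 ± 0.11 (SE; adjusted p 0.466 in edgeR). Its partner Stat2 was at -0.31 ± 0.13 and Irf7, which drives type I interferon transcription, at -0.44 ± 0.23 (adjusted p 0.471 and 0.622 in edgeR). Irf1, a factor induced mainly by type II interferon, was the exception of the 4 at 0.09 ± 0.16. Irf9 shares exonic sequence on the same strand with Rnf31, whose total was 50.9% of the Irf9 total, so that its counts are less certain.

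The 4 sensors of nucleic acid were all lower in fitted level. Dhx58 encodes LGP2, a helicase that binds viral RNA and tunes the sensor MDA5. Dhx58 was at 17.1, 26.4, 24.5, 20.9 and 19.0 CPM in the 3-week controls and at 13.8, 13.9, 15.4, 13.6 and 15.2 in HIRA KO. Every HIRA KO liver was below every control, with a log2 fold change of -0.59 ± 0.21 (SE; adjusted p 0.344 in edgeR). Such a separation in this direction was found for 2 of the 42 members and 1.24% of all genes. Ddx58, the gene of the sensor RIG-I, was at -0.24 ± 0.11, Ifih1, the gene of MDA5, at -0.23, and Zbp1, a sensor of left-handed nucleic acid, at -0.63 ± 0.34 with overlapping groups. Fitted on the 10 livers of the 3-week groups alone, Dhx58 had an adjusted p of 0.0246 and Ifi47 of 0.0350 (edgeR), at the same fold changes.

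The other member with separated groups was Ifit3, of the family that binds viral RNA ends. It was at 24.98, 28.3, 36.5, 23.3 and 23.5 CPM in the controls and at 17.1, 17.8, 22.6, 20.7 and 21.2 in HIRA KO, a log2 fold change of -0.46 ± 0.29 (SE; adjusted p 0.724 in edgeR). Ifit1 was at 24.9, 27.2, 51.2, 16.9 and 21.5 CPM in the controls and at 11.2, 11.9, 23.2, 15.6 and 20.1 in HIRA KO. Ifit1 had the lowest fitted fold change of all members, -0.79 ± 0.35 (adjusted p 0.513 in edgeR), and its groups overlapped. Ifit2 was the member with the highest, 0.16 ± 0.37. The 5 genes of the OAS family were at -0.50 (Oasl1) to -0.02 (Oas3), and 1 of them, Oasl1, had an unadjusted p under 0.05.

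All 10 of the other antiviral effectors and ISG15 system genes were lower in fitted level, with a median of -0.42 and 5 at an unadjusted p under 0.05. Isg15, the ubiquitin-like modifier, was at 22.8, 32.9, 43.4, 16.9 and 20.0 CPM in the controls and at 12.7, 13.7, 23.3, 19.1 and 19.2 in HIRA KO. Control replicates 2 and 3 lay far above the rest, and control replicates 1, 4 and 5 lay within the HIRA KO range. Its log2 fold change was -0.63 ± 0.28 (SE; adjusted p 0.527 in edgeR). Mx2, a dynamin-like antiviral GTPase, was at -0.55 ± 0.20, Ifi44 at -0.76 ± 0.35 and the steadier Ifi35 at -0.32 ± 0.11 (adjusted p 0.376, 0.536 and 0.275 in edgeR). Usp18, the protease that removes ISG15 and dampens receptor signalling, was at -0.19 ± 0.26, and Bst2 at -0.08 ± 0.11.

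Of the 9 interferon-inducible GTPases, 8 were lower in fitted level. Ifi47 (also called IRG-47) had the smallest adjusted p of the members at 3 weeks. Ifi47 was at 41.2, 49.3, 48.1, 35.9 and 26.9 CPM in the controls and at 18.8, 21.2, 29.2, 23.4 and 26.1 in HIRA KO. Control replicate 5 alone fell within the HIRA KO range, and the log2 fold change was -0.76 ± 0.23 (SE; adjusted p 0.219 in edgeR). Irgm1, a regulator of the other immunity-related GTPases and of autophagy, was at 78.0 to 114 CPM against 46.3 to 85.6, with HIRA KO replicate 3 the library that overlapped (-0.50 ± 0.17, adjusted p 0.316 in edgeR). Iigp1, the most abundant of the 9, was at 325 to 475 CPM and 296 to 504 CPM, a log2 fold change of 0.02 ± 0.13. Igtp and Irgm2 share exonic sequence on the same strand in the annotation, with totals of similar size, so that their counts are less certain. With the strand setting unknown, the same holds for 3 places where genes overlap on opposite strands, Rtp4 with Masp1, Psmb9 with Tap1 and Irf7 with Phrf1. Masp1 had 532% of the counts of Rtp4, Tap1 had 189% of those of Psmb9, and Phrf1 had 29.1% of those of Irf7. Rtp4 also overlaps Gm45338 on the same strand, with 20.1% of its counts.

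The 6 genes of antigen presentation were all lower in fitted level, with a median of -0.11 and a range of -0.19 (Psmb8) to -0.03 (B2m), and none had an unadjusted p under 0.05. H2-K1 was at 2178, 1739, 2143, 1661 and 1850.1 CPM in the controls and at 1698, 1521, 2045, 1664 and 1582 in HIRA KO. The groups overlapped over most of their range (-0.17 ± 0.12 SE; adjusted p 0.757 in edgeR). The 36 other members, those of the interferon response, had role medians of -0.42 to -0.26, but single ones such as Oas3 (-0.02), Oas2 (-0.06) and Bst2 (-0.08) were as near to 0. A difference between roles was not tested.

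**Figure D3:**
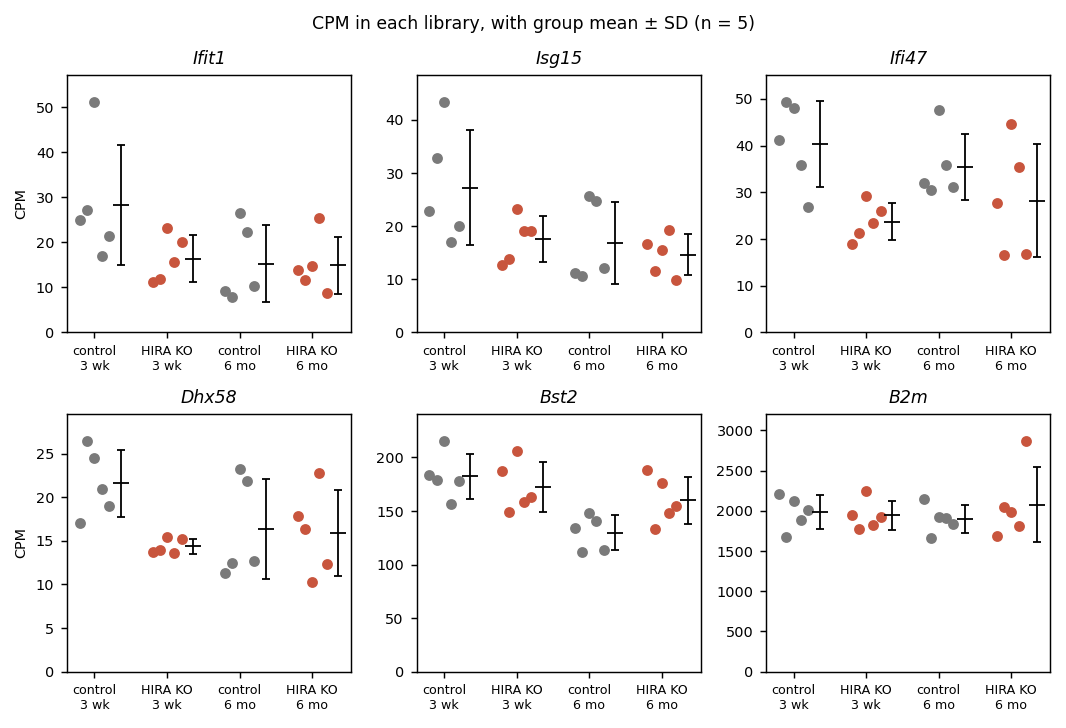
CPM of Ifit1, Isg15, Ifi47, Dhx58, Bst2 and B2m in each of 20 libraries (points, replicates 1 to 5 from left to right; grey control, red HIRA KO), with the mean and SD of 5 livers beside them. Each axis starts at 0. For Dhx58 the 5 HIRA KO livers at 3 weeks, at 13.6 to 15.4 CPM, lie under the 5 controls, at 17.1 to 26.4, and for B2m the highest point is the library labelled HIRA KO 6 months replicate 5.

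At 6 months the members split evenly. In HIRA KO livers 22 of the 42 had a higher fitted level and 20 a lower one, the median log2 fold change was 0.01, and 54.3% of all genes were higher. No member had an adjusted p under 0.05 (0 of 42, background 1.31%) or was called (background 0.332%), and DESeq2 called 0 as well. At an unadjusted p under 0.05 there were 2 members, or 4.76%, against 15.5% of all genes. Left out in turn, single libraries moved these counts. Without control replicate 3, 34 members were higher and 9 had an unadjusted p under 0.05, all higher. Without the library labelled HIRA KO 6 months replicate 5, 28 were higher, the median was 0.15 and 4 had an unadjusted p under 0.05, all higher. Without HIRA KO replicate 4, 13 were higher. Without HIRA KO replicate 3 the unadjusted count was 4, 3 of them lower, and it was 1 without control replicate 4 or HIRA KO replicate 1.

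The members at an unadjusted p under 0.05 were Bst2 and Psmb8. Bst2 was at 134, 112, 148, 141 and 113 CPM in the 6-month controls and at 188, 133, 176, 148 and 155 in HIRA KO. HIRA KO replicates 2 and 4 lay within the control range, and the log2 fold change was 0.30 ± 0.11 (SE; adjusted p 0.194 in edgeR), or 0.32 ± 0.12 without the library labelled HIRA KO 6 months replicate 5. Psmb8, a catalytic subunit of the immunoproteasome, was at 52.6, 54.0, 70.4, 63.1 and 48.9 CPM in controls and at 46.1, 36.2, 52.4, 56.4 and 20.8 in HIRA KO. The library labelled HIRA KO 6 months replicate 5 was its lowest of all 20, and the log2 fold change was -0.45 ± 0.20 (adjusted p 0.273 in edgeR) with it and -0.28 without it. Usp18 had the highest fold change, 0.48 ± 0.26 (0.63 ± 0.25 without that library), with groups that overlapped.

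Members that stood low at 3 weeks were close to 0 at 6 months in several roles. Dhx58 was at 11.3, 12.5, 23.3, 21.8 and 12.7 CPM in the 6-month controls and at 17.8, 16.4, 10.3, 22.8 and 12.3 in HIRA KO (-0.04 ± 0.21 SE on the log2 scale, 0.04 without the library labelled HIRA KO 6 months replicate 5). Ifit1 was at 9.09, 7.88, 26.5, 22.4 and 10.3 CPM in controls and at 13.9, 11.7, 14.7, 25.4 and 8.84 in HIRA KO (-0.03 ± 0.35, and 0.11 without that library). In both genes the 6-month controls fell into 2 high libraries, replicates 3 and 4, and 3 low ones, and the HIRA KO values lay across that gap. Ifi47 was at a fitted -0.32 ± 0.23 (adjusted p 0.536 in edgeR), and at -0.19 ± 0.22 without the library labelled HIRA KO 6 months replicate 5.

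The difference between the time points was itself tested as an interaction. Its fitted value, the fold change at 6 months minus that at 3 weeks, was above 0 for 38 of the 42 members (54.4% of all genes), with a median of 0.32 against 0.03 over all genes. Without HIRA KO 6 months replicate 4, 30 were above 0 and the median was 0.27. These were 35 and 0.24 without control 3 weeks replicate 3. Without control 6 months replicate 3, 39 were above 0 and the median was 0.56, and without the library labelled HIRA KO 6 months replicate 5 these were 39 and 0.43. No member passed (0 of 42, background 0% of genes) and the smallest adjusted p was 0.688 (edgeR), for Irf9, with DESeq2 also at 0. Irf9 (0.39 ± 0.15, or 0.44 ± 0.16 without that library) and Bst2 (0.38 ± 0.16, or 0.39 ± 0.17) had an unadjusted p under 0.05, 4.76% of the members against 6.62% of genes. The number with an unadjusted p under 0.05 was 1 to 5 on leaving out any of the other 18 libraries, with 1 of 4 below 0 without HIRA KO 6 months replicate 3. It was 18 without control 6 months replicate 3 and 14 without the library labelled HIRA KO 6 months replicate 5, and in both of these fits all were above 0.

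The control livers were compared between the times as well. These values share the 3-week controls with the comparison at 3 weeks and the 6-month controls with that at 6 months, so that they are no separate support for either. In controls 36 of the 42 members had a lower fitted level at 6 months than at 3 weeks (49.5% of all genes), with a median of -0.22, or -0.40 without 6-month replicate 3 and -0.14 without 6-month replicate 5. None passed an adjusted p of 0.05 in edgeR with the 4 group means (0 of 42, background 0.324% of genes at any fold and 0.162% called). Other fits of this comparison, in which members did pass, are given with the dependence on processing below. An unadjusted p under 0.05 was reached by 10 members lower at 6 months, 23.8% against 6.38% of all genes, and by Irf1, which was higher (0.45 ± 0.16 SE; adjusted p 0.220 in edgeR). The count of 10 was 4 without 3-week replicate 3, 6 without 6-month replicate 1 or 2, and 21 without 6-month replicate 3.

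Bst2 had the smallest adjusted p of the members in any of the comparisons. It was at 184, 179, 215, 157 and 178 CPM in the 3-week controls and at 134, 112, 148, 141 and 113 in the 6-month controls. All 5 later livers were below all 5 earlier ones, with a log2 fold change of -0.49 ± 0.11 (SE; adjusted p 0.0591 in edgeR). DESeq2 gave it an adjusted p of 0.00688, and it was the only member with groups that did not overlap here (background 1.81% lower). In HIRA KO livers Bst2 was at 187, 149.5, 206, 158 and 163 CPM at 3 weeks, and the change to 6 months was -0.11 ± 0.11 (adjusted p 0.840 in edgeR), or -0.10 ± 0.12 without the library labelled HIRA KO 6 months replicate 5.

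Rsad2, the gene of the antiviral enzyme viperin, had the lowest fitted value between control times, -1.01 ± 0.32 (SE; adjusted p 0.169 in edgeR). It was at 16.8, 17.2, 39.6, 16.0 and 18.8 CPM at 3 weeks and at 8.62, 5.96, 19.2, 10.5 and 9.54 at 6 months. Replicate 3 was the highest library of its group at each time, and the groups overlapped through it. Ifit1 was at -0.89 ± 0.35, Usp18 at -0.86 ± 0.26, Isg15 at -0.69 ± 0.28, Mx2 at -0.63 ± 0.20 and Irf7 at -0.62 ± 0.23. Without 6-month replicate 3, Irf7 was at -0.97 with an adjusted p of 0.0476 (edgeR). In the HIRA KO livers 29 of the 42 members were higher in fitted level at 6 months (55.4% of all genes), the median was 0.07, and 0 had an unadjusted p under 0.05 in edgeR (background 8.95%). That last count was 6, all higher, and the median 0.21 without the library labelled HIRA KO 6 months replicate 5. Without 6-month replicate 4, 19 members were higher and the median was -0.04, and without 3-week replicate 1 these were 22 and 0.01. They were 23 and 0.03 without 6-month replicate 3, and 32 and 0.16 without 3-week replicate 3.

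The wider pathway was read from a list of 86 further genes. Of the 10 interferon genes, 8 had no count in any library, which at 3 counts per library allows up to 0.151 CPM, for counting error only. Ifnk had 6 counts in all, and Ifng, the type II interferon, had 39 counts over the 20 libraries, at 0.00 to 0.21 CPM. Receptor genes were present in every group, with Ifnar1 at 27.8 to 41.9 CPM and Ifnar2 at 59.6 to 90.1 CPM over all libraries. None of the 76 genes that passed the count filter had an adjusted p under 0.05 at 3 weeks, at 6 months or in the interaction (edgeR). At 3 weeks 50 were lower and 26 higher in HIRA KO, with a median of -0.05, where 50.9% of all genes were lower. At an unadjusted p under 0.05 there were 11 lower and 1 higher, with 4.50% of all genes lower at that p. Of the 26 other interferon-stimulated genes, 18 were lower (13 without control replicate 3), Ifitm3 at -0.39 ± 0.12 and Parp9 at -0.40 ± 0.12 among them (adjusted p 0.224 and 0.240 in edgeR).

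The MHC class II genes, a list of 7, were on the other side at 3 weeks. All 7 were higher in fitted level in HIRA KO, with a median of 0.40 (0.26 without HIRA KO replicate 3), and none had an unadjusted p under 0.05. Of the 13 other class I pathway genes 12 were lower, and the 2 at an unadjusted p under 0.05, Calr (-0.49 ± 0.18 SE) and Pdia3 (-0.42 ± 0.16), encode chaperones that fold many glycoproteins of the endoplasmic reticulum. In controls H2-Q7, a nonclassical class I gene, was the 1 gene of the 76 with an adjusted p under 0.05 between the times, at a log2 fold change of -0.54 ± 0.10 (adjusted p 0.0227 in edgeR).

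Markers of other cell types moved with the level of the members in some of the libraries that stood apart. Kupffer cell and macrophage markers (10 of 10 detected) summed to 1803 CPM in control 6 months replicate 3 and to 160.2 in the library labelled HIRA KO 6 months replicate 5, the extremes of the 20, and to 255 to 1089 in all others. T cell markers (7 of 7) summed to 22.8 CPM in the former and 3.61 in the latter, neither of them an extreme, since the other 18 libraries ran from 2.80 (control 3 weeks replicate 2) to 29.2 (HIRA KO 6 months replicate 3). Control 3 weeks replicate 3, with the highest mean of the members, was at 4.11. Neutrophil markers (4 of 4) summed to 42.4 CPM in control 3 weeks replicate 3 and 18.8 in control 6 months replicate 3, against 1.58 to 8.04 in the other 18. Ptprc, a marker of leukocytes in general, was at 35.3 CPM in control 6 months replicate 3 and at 5.13 in the library labelled HIRA KO 6 months replicate 5. The 2 defining genes of plasmacytoid dendritic cells summed to 0.508 to 1.34 CPM in all libraries.

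**Figure D4:**
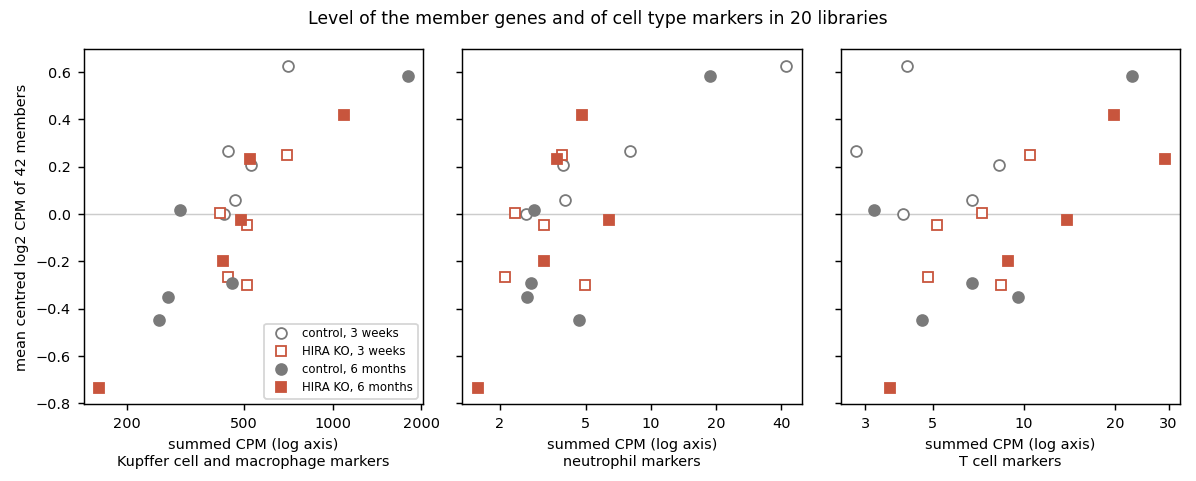
Mean centred log2 CPM of the 42 members (vertical axis) against the summed CPM of markers of Kupffer cells and macrophages, neutrophils and T cells (horizontal, log axes) in 20 libraries. Open symbols are 3 weeks and filled symbols 6 months; circles are control and squares HIRA KO. Control 6 months replicate 3 lies at the upper right of each panel (1803, 18.8 and 22.8 CPM), and the library labelled HIRA KO 6 months replicate 5 at the lower left of the first 2 (160.2 and 1.58 CPM).

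Between the groups at 3 weeks these markers did not all go the way of the members. Kupffer cell markers spanned 428 to 704 CPM in controls and 414 to 698 in HIRA KO, with a median log2 fold change of 0.04 over the 10 genes, or 0.18 without control replicate 3 and -0.11 without HIRA KO replicate 3. Hepatocyte markers were lower for 4 of 7 (median -0.11, or -0.03 without control replicate 1, -0.22 without control replicate 2, -0.18 without HIRA KO replicate 3 and -0.07 without HIRA KO replicate 4). At 6 months 6 of 7 were higher in HIRA KO (median 0.18). T cell markers at 3 weeks (7 of 7 higher, median 0.57, or 6 of 7 and 0.35 without control replicate 2) and B cell markers (4 of 4 higher, median 0.74) stood higher in HIRA KO. Neutrophil markers were lower (4 of 4, median -1.89), with S100a8 at 0.88 to 13.4 CPM in controls and 0.72 to 1.66 in HIRA KO. Control replicate 3 carried most of this. Without it the median was -0.51 over the 3 neutrophil markers that still passed the count filter, and the other 4 controls summed to 2.65 to 8.04 CPM against 2.11 to 4.98 in HIRA KO. No marker of these lists passed an adjusted p of 0.05 at 3 weeks (edgeR). Between the control times, fitted levels at 6 months were lower for endothelial markers (5 of 5, median -0.36) and neutrophil markers (4 of 4, median -0.96). Hepatocyte markers were also lower in fitted level for 6 of 7, 1 of them at an unadjusted p under 0.05, with a median of -0.22 beside the members' -0.22, and the median was -0.27 to -0.16 with any 1 library left out. They were lower for 4 of 7 between the HIRA KO times (median -0.03). Endothelial (4 of 5, -0.28) and plasmacytoid dendritic cell markers (2 of 2, -0.20) were also lower between the HIRA KO times. Higher there were T cell (7 of 7, median 1.07), natural killer (NK) cell (5 of 5, 0.46) and B cell markers (4 of 4, 0.43). So were MHC class II genes (7 of 7, 0.54), Kupffer cell (7 of 10, 0.17) and neutrophil markers (3 of 4, 0.26). Fitted levels at the later control time were higher for T cell markers (7 of 7, median 0.74), B cell markers (4 of 4, median 0.75) and MHC class II genes (7 of 7, median 0.81). Kupffer cell markers were higher for 8 of 10 (median 0.33), but all 10 were lower (median -0.62) without 6-month replicate 3. Single libraries decided several of the others as well. Without 3-week replicate 3 the neutrophil median turned to 0.46 over 3 genes, and without 6-month replicate 3 it was -1.83 over 3 genes. Also without 6-month replicate 3, T cell markers were at 0.17 with 5 of 7 higher and MHC class II genes at 0.06 with 6 of 7 higher. The B cell median was 0.43 without 6-month replicate 5, and the endothelial one -0.21 without 3-week replicate 4. In the interaction, fitted values were above 0 for neutrophil (4 of 4, median 1.18), endothelial (5 of 5, 0.20) and NK cell markers (5 of 5, 0.37). They were also above 0 for hepatocyte (6 of 7, 0.14) and T cell markers (5 of 7, 0.16). Values were below 0 for B cell (4 of 4, -0.37), Kupffer cell (7 of 10, -0.19) and plasmacytoid dendritic cell markers (2 of 2, -0.07). The part of these cells in the differences between libraries and groups was not tested.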

How the data were processed

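Members and gene lists were chosen with earlier results of these data known. The authors deposited whole-number read counts per gene and a table of FPKM values. Per the labels and methods, reads were aligned to mm10 with STAR; the submitters' notes name HTSeq and Cufflinks for quantification while the study's methods name HOMER, and the strand setting is not given in the sources used here. Reads of overlapping genes therefore cannot be assigned with certainty. Counts of all 20 libraries were fitted in edgeR 4.0.16 (R 4.3.3; quasi-likelihood test, TMM, 4 group means), keeping 22867 genes with at least 10 counts in total, with Benjamini-Hochberg adjustment over all of them. A gene was called at an adjusted p under 0.05 and a log2 fold change beyond 1. SE is the fold change divided by the root of the F statistic. Log2 CPM used a prior count of 2. Alternatives were DESeq2 1.42.0, other scaling and filters, and limma 3.58.1 on the authors' FPKM plus 1 or 0.1. Scripts were tested on simulated counts. Nothing states that the 5 livers per group came from separate cages or days, so p-values measure the spread between these samples. All 4 groups shared a spread per gene in this fit, so SE and p-values at either time hold the spread of both. The SD of the members' mean was 0.25 (control) and 0.22 (HIRA KO) at 3 weeks. It was 0.42 and 0.45 at 6 months. Sequences are from RefSeq (GRCm38.p6), and gene positions from GENCODE M21. The named genes are Hira, the 42 members, the wider pathway list and cell type markers. No libraries were duplicates. A replicate number shared between groups is not stated to mark a batch. Correlations of same-numbered libraries' deviations ran from -0.31 to 0.33 (14 of 30 above 0.1, against 25 of 120 for other numbers). Since not every pair was above 0.1, the numbers were not taken as pairs. Leaving out single libraries for the marker and pathway lists was added after the data were seen.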

Additional observations from a re-analysis of the deposited data

Results flagged for a closer look

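In 172 checks of a library standing apart from its group of 5 (Dixon's ratio, for the 42 members and their mean in 4 groups), 11 were found, where chance gives about 1 in 20, or 8.6 in all. The number is near that, and the members of 1 library are not independent of each other. Of these, 7 were control 6 months replicate 3 as the highest library, at 4.24 log2 CPM for Ifit2, 4.57 for Oas2, 3.77 for Oas3, 5.04 for Oasl2, 2.91 for Mx1, 4.28 for Ifi44 and 4.82 for Gbp2. The nearest other control was at 2.51, 2.55, 1.15, 3.38, 1.21, 3.07 and 3.75 log2 CPM in that order. Control 3 weeks replicate 3 was the highest of its group for Rsad2 (5.31, next 4.24) and Irgm1 (6.83, next 6.41). HIRA KO 3 weeks replicate 2 was the lowest of its group for Usp18 (3.97, next 4.41), and HIRA KO 6 months replicate 4 the highest for Oasl1 (5.00, next 4.56). Control 6 months replicate 3 also had the highest Kupffer cell marker sum of the 20 libraries, 1803 CPM, and the part of that in these values was not tested.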

How the results depend on the processing

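No member was called in any comparison under DESeq2, size factors of DESeq2 in edgeR, either filter, fitting only the groups compared, FPKM plus 1 or 0.1 in limma, or on leaving out any 1 library. With the replicate block, 1 was called between the control times, Rsad2. A library's best match in another group had its own number in 21 of 60 cases, where 12 would with no relation between numbers, and whether a number marks a batch was not tested. The median of the members at 3 weeks was -0.32 to -0.24 over these alternatives and -0.37 to -0.19 on leaving out 1 library. At 6 months it was -0.01 to 0.09 and -0.10 to 0.23.

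At an adjusted p under 0.05 with no limit on the fold, members passed in 4 cases. These were 2 at 3 weeks when only the groups compared were fitted (Dhx58 and Ifi47), 1 between the control times with DESeq2 (Bst2), 3 there with the replicate block (Rsad2, Bst2 and Usp18, at an edgeR adjusted p of 0.0168, 0.0148 and 0.0323), and 0 to 1 there on leaving out 1 library (Irf7, without 6-month replicate 3). The block gave 13 members at an unadjusted p under 0.05 in the interaction, beside 1493 of 22867 genes. Between the control times it gave 17 lower and 1 higher at that p, beside 1459 and 1518 of all genes. At 3 weeks the count of members at an unadjusted p under 0.05 was 5 with either FPKM setting, 12 to 13 with DESeq2, its size factors or other filters, 16 with the block and 19 when only the groups compared were fitted. Hira at 6 months was at 0.0315 with FPKM plus 1 and 0.0362 with FPKM plus 0.1, above 0 where the counts gave a value below 0. The cause was not tested.

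The number of all genes called moved more. At 3 weeks it was 26, with 69 in DESeq2, 61 when only the groups compared were fitted, 4 with FPKM plus 1, 12 with FPKM plus 0.1, 45 without the fold threshold and 3 to 30 on leaving out 1 library. At 6 months it was 76, with 127 in DESeq2, 0 when only the groups compared were fitted, 17 and 39 with FPKM, 299 without the fold threshold and 18 to 109 on leaving out 1 library. In the interaction it was 0, with 1 under each FPKM setting and 0 to 1 on leaving out 1 library. Between the control times it was 37, with 156 in DESeq2, 61 with the replicate block, 67 when only the groups compared were fitted, 1 and 5 with FPKM, 74 without the fold threshold and 1 to 54 on leaving out 1 library. Between the HIRA KO times it was 13, with 74 in DESeq2, 25 with no filter, 26 with the replicate block, 8 when only the groups compared were fitted, 3 and 4 with FPKM and 5 to 25 on leaving out 1 library.

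Members with few counts, such as Mx1 (1389 in all), and the spread among 5 livers limit what was detectable at this depth and number of livers. The Oas3 difference at 3 weeks had a standard error of 0.54 on the log2 scale, from a spread shared by all 4 groups. The SD of Oas3 within groups was 0.22 (control) and 0.27 (HIRA KO) log2 CPM at 3 weeks. It was 1.35 and 1.02 at 6 months.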

Other observations

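Replicate 3 was the highest library of its group for 33 of the 42 members in the 3-week controls, 37 in the 3-week HIRA KO livers and 31 in the 6-month controls, whereas replicate 4 was the highest for 25 and replicate 3 for 14 in the 6-month HIRA KO livers. The labels give the number no further meaning.

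B2m was the only member whose highest value of all 20 libraries, 2863 CPM, was in the library labelled HIRA KO 6 months replicate 5, where 23 members were at their lowest. H2-K1 was at 1477 CPM and H2-D1 at 694 CPM in the same library, each within the range of the other HIRA KO livers of that time.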
